A study of Mus musculus with 5 samples.

Results

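The genes described here encode 10 large histone methyltransferases, Ash1l, Kmt2a, Kmt2b, Kmt2c, Kmt2d, Kmt2e, Setd1a, Setd1b, Setd2 and Nsd1, of 27179 genes in the table of read counts. They were chosen by symbol because Ash1l was lower in the knockout libraries of these same data, so their differences between the groups, and the counts of members called, are a description that tests nothing, and no p is printed for them. RNA was sequenced from ear skin of 2 groups of mice: the Cd1d knockout (KO), titled Cd1d -/-, with 2 libraries, and the control, with 3 libraries. The control titles read Cd1d +/-, whereas a genotype tag on those samples reads WT; the series title gives the background as B6. Age, sex, housing and treatment are not given in the labels, and nothing there says that each library is a separate mouse, so the p-values given below for other genes measure the spread between these libraries, which may be technical.

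Histone methyltransferases of this kind carry a SET domain and place methyl groups on lysines of histone H3. The KMT2 and SETD1 proteins act on lysine 4 (H3K4) inside COMPASS complexes, where a shared core of small subunits is needed for activity: SETD1A and SETD1B act broadly at active promoters, KMT2A and KMT2B at subsets of promoters such as those of the Hox genes, and KMT2C and KMT2D mark enhancers. KMT2E is related to them in its SET and PHD domains but is not known as an active H3K4 methyltransferase. SETD2 travels with elongating RNA polymerase II and makes trimethylated lysine 36 (H3K36), while NSD1 and ASH1L make the dimethylated form. In skin, KMT2D is known from work on keratinocytes to help maintain the expression of epidermal differentiation genes.

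Library totals were 45270805 and 54596686 counts in the KO and 32353957 to 79160005 in the control. Cd1d1, the targeted gene, had 1.19 and 1.12 CPM (counts scaled to library size with TMM factors) in KO skin and 6.61, 9.87 and 5.52 CPM in control skin, so the genotype labels and the counts pointed the same way. Markers of keratinocytes, fibroblasts, muscle, fat, cartilage, endothelium, leukocytes, Schwann cells and cycling cells were all detected in every library, none of them at 0. One library stood apart: 8 markers of the hair matrix and shaft summed to 627 CPM in KO replicate 1, against 15.8 CPM in KO replicate 2 and 12.2 to 22.5 CPM in the controls. Some other marker sums did not overlap between the groups. Those of 7 suprabasal keratinocyte genes were 34500 to 38200 CPM in KO and 23900 to 31100 CPM in control skin, those of 6 basal keratinocyte genes 18400 to 18900 CPM and 15600 to 18100 CPM, those of 6 muscle genes 4370 to 5140 CPM and 3650 to 3960 CPM, those of 6 leukocyte genes 842 to 934 CPM and 732 to 780 CPM, and those of 5 endothelial genes 173 to 187 CPM and 196 to 208 CPM, in each case KO before control. Among all tested genes, both KO libraries lay above every control for 19.9% and below every control for 20%. The part of these markers in the values below was not tested. In bulk skin, fewer cells of a type and less RNA per cell cannot be told apart.

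All 10 genes passed the filter on low counts, with 1127 counts or more in every library. They lie on 6 chromosomes (GRCm38): Ash1l on chromosome 3 (88950414 to 89079375), Kmt2c (25271795 to 25498855), Kmt2e (23433036 to 23504235) and Setd1b (123142040 to 123168630) on chromosome 5, Kmt2b (30568855 to 30589056) and Setd1a (127777389 to 127800122) on chromosome 7, Kmt2a (44803355 to 44881352) and Setd2 (110532500 to 110618633) on chromosome 9, Nsd1 (55209782 to 55318325) on chromosome 13 and Kmt2d (98831669 to 98874077) on chromosome 15. What they share beyond their enzymatic family is size. The longest annotated transcript ran from 6487 bases for Setd1a to 19823 bases for Kmt2d, with 5148 to 16764 coding bases in 17 to 59 exons. Their base composition fell into 2 classes: GC content was 44.3% to 50.6% for Setd2, Ash1l, Kmt2e, Nsd1, Kmt2c and Kmt2a, and 57% to 59.1% for Setd1a, Kmt2d, Setd1b and Kmt2b. Where genes overlap, the assignment of reads is uncertain, since no source used here says whether reads were counted by strand. The first 800 bases of Ash1l overlap the opposite-strand gene Dap3, and Kmt2e overlaps Srpk2 over 880 bases and 5031425E22Rik over 1318 bases.

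Per kilobase of the longest annotated transcript, all 10 were expressed at middling levels in ear skin, between the percentiles of 35.5 and 66.4 of tested genes with a known length in the controls. Kmt2e was the most abundant, with 9.64 ± 0.744 CPM per kilobase in KO (SD, n = 2) and 11.2 ± 1.1 in control skin (SD, n = 3). Setd1a (8.36 in KO and 9.47 in control), Kmt2b (6.84 and 8.54), Nsd1 (5.39 and 7.49) and Setd2 (5.07 and 6.83) followed. Kmt2d (3.17 and 5.46), Setd1b (3.98 and 5.31), Ash1l (3.32 and 5.24) and Kmt2c (3.54 and 4.6) were close to one another, and Kmt2a was the least abundant, with 1.85 ± 0.361 in KO and 2.89 ± 0.17 in control skin. Among neighbours in this order, the ranges of the 3 control libraries overlapped for every pair but Nsd1 over Setd2 and Kmt2c over Kmt2a. With the union of exons as the length, Setd1a (9.04 in control) stood above Kmt2e (7.83), while Kmt2a stayed last at 2.86.

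For the 3 enzymes of H3K36, each KO library lay below all of the controls, as for 8 of the 10 members. The same held for 20% of all tested genes and for 52.5% of those at least as long as Setd1a. Ash1l, the gene for which the family was chosen, had 41.1 and 36.2 CPM in KO replicates 1 and 2, against 65.5, 64.2 and 53.1 CPM in control replicates 1, 2 and 3. The groups did not overlap, and the log2 fold change was -0.66 (SE 0.14), a fitted level of 63.3% of control. Nsd1 had 67.9 and 70 CPM in KO and 104, 91.2 and 92.3 CPM in control skin, again with no overlap and a log2 fold change of -0.47 (SE 0.12). Setd2, the gene for the enzyme of H3K36 trimethylation, had 39.3 and 45.4 CPM in KO and 58.6, 57.1 and 55.4 CPM in control skin. Its control libraries were the most alike of the 10 genes, with a coefficient of variation of 2.87%, and its log2 fold change was -0.43 (SE 0.12).

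The KMT2 enzymes form pairs of paralogues, and whether the fold changes differ within a pair was not tested. Kmt2a had 34.7 and 26.3 CPM in KO, against 49.7, 44.4 and 48.8 CPM in control skin, a log2 fold change of -0.64 (SE 0.14). KO replicate 2 was the lower of the KO libraries, and both lay below every control. Its paralogue Kmt2b had 56.4 and 59.5 CPM in KO and 69.3, 60.8 and 86.7 CPM in control skin, with control replicate 2 close to KO replicate 2 and a log2 fold change of -0.32 (SE 0.15). Kmt2d, the enhancer enzyme, had 62.2 and 63.4 CPM in KO and 111, 81.5 and 132 CPM in control skin. Its log2 fold change of -0.78 (SE 0.18) was the most negative of the family, the KO libraries were nearly equal, and the controls were widely spread. Kmt2c had 57.9 and 47.9 CPM in KO and 68.4, 82.2 and 55.9 CPM in control skin, so that the groups overlapped, at a log2 fold change of -0.38 (SE 0.17).

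The SETD1 pair and Kmt2e, the relative of the KMT2 genes, were also lower on average in KO. Setd1b had 35 and 35.5 CPM in KO and 41.1, 40.5 and 59.6 CPM in control skin, with control replicate 3 far above the others and a log2 fold change of -0.41 (SE 0.17). Setd1a had 51.4 and 57 CPM in KO and 62.4, 50.5 and 71.4 CPM in control skin, groups that overlapped, with a log2 fold change of -0.18 (SE 0.15). Kmt2e had 74.4 and 66.7 CPM in KO and 79.9, 90.6 and 74.7 CPM in control skin; KO replicate 1 lay just under the lowest control, and the log2 fold change was -0.21 (SE 0.13). Summed over the 10 genes, the level was 520 and 508 CPM in KO and 709, 663 and 730 CPM in control skin, or 73.4% of the control mean in KO.

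**Figure D1:**
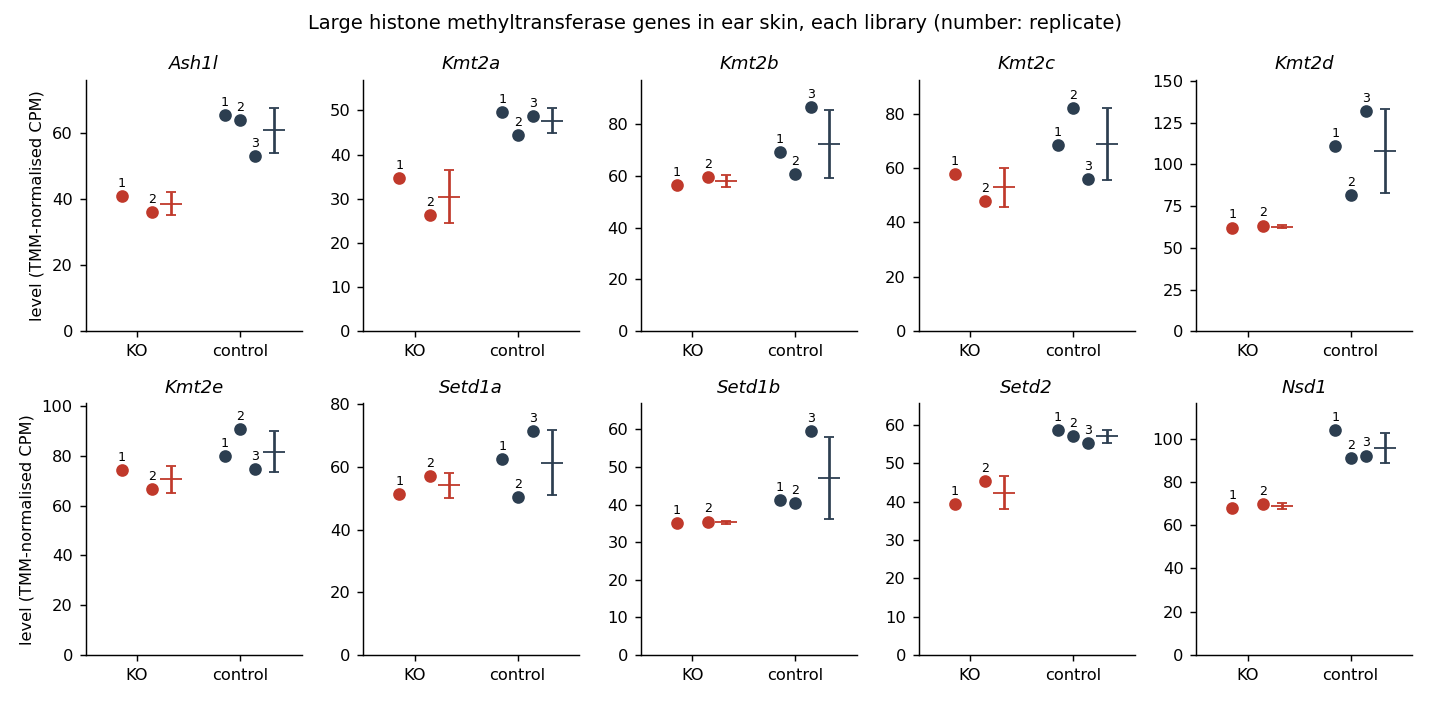
Level of each gene (vertical axis, TMM-normalised CPM from 0) in every library, KO left of control, with the replicate number above each point and the mean ± SD beside the points (n = 2 and n = 3). Both KO libraries lie below all control libraries in 8 of 10 panels, and the groups overlap for Kmt2c and Setd1a.

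The fold changes of the 10 genes ran from -0.78 to -0.18 on the log2 scale, with a median of -0.42, beside a median of -0.02 over all 17472 genes tested. By the edgeR quasi-likelihood test with Benjamini-Hochberg adjustment over all genes and a threshold of 0.05, 3 of the 10 were called lower, Ash1l, Kmt2a and Kmt2d, and 0 higher. Of all tested genes, 1.05% were called lower and 2.71% higher. Both KO libraries lay below every control for 8 of the 10 genes and for 20% of all tested genes; they lay above every control for 0 members and for 19.9% of all tested genes. Since the family was picked from this comparison, these counts describe it and support nothing further. The calls depended on the libraries kept, for the members and for all genes. Without control replicate 1, 0 of 10 members and 0 of 17072 tested genes were called (edgeR, 6 and 2253 at an unadjusted p under 0.05). Without control replicate 3, 6 members and 3277 of 17403 tested genes were called. Without control replicate 2, 5 members and 1334 of 17097 tested genes were called. Fits without KO replicate 1 or KO replicate 2 keep a lone KO library and assume that it varies like the controls. Their member medians were -0.43 and -0.44. The median log2 fold change stayed between -0.48 and -0.41 in these 5 fits.

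Within the controls, which the choice of genes did not use as a contrast, the family split by base composition. The 4 GC-rich genes, Setd1a, Kmt2d, Setd1b and Kmt2b, were each highest in control replicate 3 and lowest in control replicate 2. Their median deviation from the control mean on the log2 scale was 0.30 in control replicate 3 and -0.25 in control replicate 2. Of the 6 other genes, none was highest in control replicate 3, and 4 (Ash1l, Kmt2c, Kmt2e and Setd2) were lowest there. Tested genes at least as long as Setd1a moved likewise: the median deviation of 169 genes with a GC content over 56% was 0.23 in control replicate 3 and -0.22 in control replicate 2, and that of 1239 genes with a GC content under 51% was -0.13 and 0.09. The large spread of Kmt2d and Setd1b among the controls (coefficients of variation of 23.6% and 23.1%) moved with the GC content of their transcripts; values with this trend removed by offsets are given below. In KO replicates 1 and 2 the medians were -0.37 and -0.32 for the GC-rich members and -0.47 and -0.48 for the others. Among the long genes they were -0.24 and -0.13 for those with a GC content over 56% and -0.29 and -0.31 for those under 51%.

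**Figure D2:**
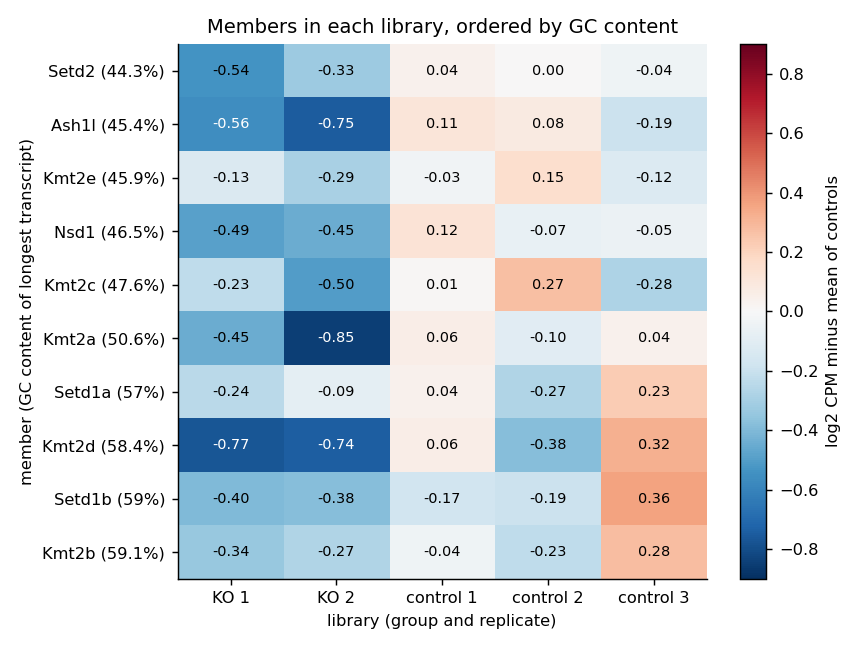
Difference of each gene (rows, ordered by GC content of the longest transcript) from its control mean in every library (columns, KO first), in log2 CPM, with the value printed in each cell. The KO columns are negative in every row, and in control replicate 3 the 4 GC-rich genes at the bottom lie between 0.23 and 0.36.

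Length moved with the differences as well. Longer transcripts had more negative fold changes, with a Spearman's rho of -0.78 over the 10 members and of -0.55 over 15809 tested genes of known length. The rho with GC content was 0.18 over the members and 0.33 over the same 15809 genes. Genes share libraries and are not replicates, so these are descriptions. The 3 genes of the family called lower are among its 5 longest. All 1726 tested genes with a transcript at least as long as that of Setd1a, the members included, had a median log2 fold change of -0.29; 88.9% of them were negative, both KO libraries lay below every control in 52.5%, and 6.08% were called lower. The median deviation of these long genes was -0.29 in KO replicate 1 and -0.28 in KO replicate 2, against -0.43 and -0.42 for the family. Transcripts of the shortest class, under 500 bases, had a median of 0.49.

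**Figure D3:**
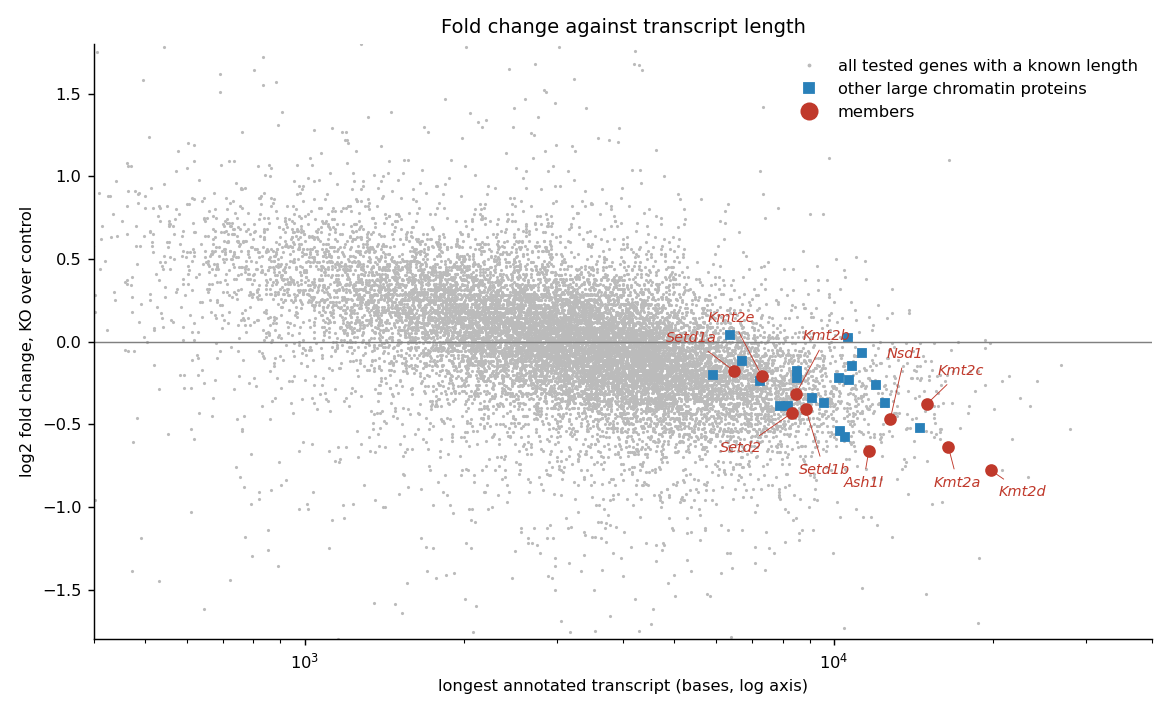
Log2 fold change of KO over control (vertical axis) against the longest annotated transcript (horizontal log axis, bases) for 15809 tested genes in grey, of which 188 lie outside the axes, with the other large chromatin proteins as blue squares and the members as red circles. Fold changes become more negative with length, and the members lie at the long end, from Setd1a at -0.18 to Kmt2d at -0.78.

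When each library's trend on transcript length was removed by offsets in the model, the family's median log2 fold change was -0.12 and 0 of 10 genes were called (edgeR, 1 at an unadjusted p under 0.05), beside a median of -0.01 over the long genes. With offsets on both length and GC content the median was -0.13, beside 0 over the long genes. Kmt2d was then at -0.51 (SE 0.10) and was the single member called, Kmt2a was at -0.30 (SE 0.12) and Ash1l at -0.29 (SE 0.09). Setd1b was at -0.23 (SE 0.10) and Kmt2b at -0.14 (SE 0.08), while Nsd1 (-0.12), Setd2 (-0.10), Setd1a (-0.03), Kmt2c (-0.01) and Kmt2e (0.08) lay near 0. Kmt2e thus changed sign with either offset, and Setd1a with length offsets alone (0.06). With both offsets the shift was larger than the spread between replicates (1 SD) for Ash1l, Kmt2a, Kmt2c, Kmt2e, Setd2 and Nsd1, and smaller for the 4 GC-rich genes.

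**Figure D4:**
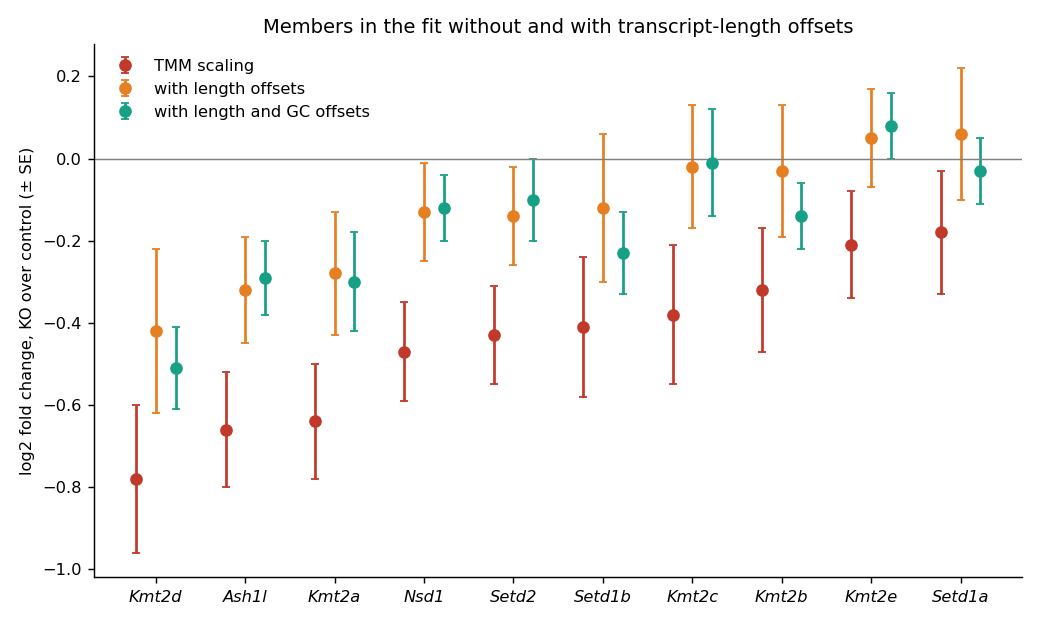
Log2 fold change of KO over control with its standard error for each gene, under TMM scaling (red), with length offsets (orange) and with length and GC offsets (green), ordered from the most to the least negative under TMM scaling. All 10 are negative under TMM scaling; with both offsets Kmt2d stands lowest at -0.51, and Kmt2e is above 0.

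RefSeq start-site windows on GRCm38.p6 were at hand for 5 of the 10 members, Kmt2a, Kmt2c, Kmt2d, Setd1a and Setd2. Each window was read over the 250 bases before the start. Those of Kmt2a and Kmt2d, the 2 of these genes that were called lower, are shown 5′ to 3′ on the minus strand, the strand of both genes, with matches to the GC box (GGGCGG or, on the other strand, CCGCCC) in capitals. For Kmt2a the 187 bases outside the RefSeq span of the gene are given (chr9:44881353-44881539), with 3 of its 4 GC boxes, and for Kmt2d the whole window (chr15:98871206-98871455).
Kmt2a: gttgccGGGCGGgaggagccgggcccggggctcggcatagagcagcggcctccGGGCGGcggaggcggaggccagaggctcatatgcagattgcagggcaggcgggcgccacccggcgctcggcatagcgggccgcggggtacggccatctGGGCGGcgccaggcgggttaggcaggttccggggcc
Kmt2d: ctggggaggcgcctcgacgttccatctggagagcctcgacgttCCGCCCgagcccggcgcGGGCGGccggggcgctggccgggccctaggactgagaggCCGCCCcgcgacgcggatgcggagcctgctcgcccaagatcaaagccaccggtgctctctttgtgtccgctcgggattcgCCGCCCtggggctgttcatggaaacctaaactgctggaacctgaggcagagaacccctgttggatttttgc

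All 5 windows were rich in CpG dinucleotides, 25 in Setd1a, 26 in Kmt2d, 29 in Kmt2a, 31 in Setd2 and 48 in Kmt2c, against a median of 6 over 32851 windows of the same length. The GC box was found 4 times in Kmt2a, 4 times in Kmt2d, 7 times in Setd2 and 12 times in Kmt2c, with some matches overlapping, and not in Setd1a; 32.7% of all windows hold it. The other motifs, searched on both strands, had no match in these 5 windows: the CCAAT box (CCAAT), the ETS motif (CCGGAAG), the TATA box (TATAAA), the E-box (CACGTG), the NRF1 motif and the CRE (TGACGTCA), held by 33.8%, 6.91%, 12.4%, 6.02%, 3.74% and 1.55% of all windows in that order. The start sites used here need not be the outermost ones: all 250 bases of the Kmt2d window lie inside the RefSeq span of the gene, as do 97 of the Setd2, 72 of the Kmt2c and 63 of the Kmt2a window. For Setd1a 0 bases lie inside its RefSeq span, while 209 lie in GENCODE exons, counted for any gene on either strand. These matches are letters in a window and were not tied to the differences between the groups.

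Ash1l lies 1.94 Mb from Cd1d1 on the same chromosome, so a linked difference between the knockout chromosome and the control chromosome and an effect of losing Cd1d cannot be told apart at this locus from these libraries. Among 153 tested genes within 5 Mb of Cd1d1, 7 were lower, Ash1l and Cd1d1 among them, and 11 were higher (edgeR, adjusted p under 0.05), or 11.8%, beside 3.76% of all tested genes in either direction. With length offsets 2 of 142 such genes of known length were lower, Cd1d1 among them, and 0 higher. Over all tested genes of known length, 14 of 15809 were called in either direction. With length and GC offsets 5 of the 142 were lower, Cd1d1 among them, and 5 higher, beside 536 of 15809. Ash1l itself was then not called. None of the 5 genes next to Ash1l passed the threshold with TMM scaling over all 5 libraries. Gon4l, on one side, had 16.4 and 17.4 CPM in KO and 24.1, 18.2 and 25.6 CPM in control skin (log2 fold change -0.42, SE 0.16, adjusted p = 0.169 by edgeR), and was called lower without control replicate 2 (-0.56, edgeR adjusted p = 0.0204). Dap3, the overlapping gene for a mitochondrial ribosomal protein, had 80.2 and 79.9 CPM in KO and 68.2, 70.7 and 66.9 CPM in control skin (0.22, SE 0.11, edgeR adjusted p = 0.269), the opposite sign to Ash1l. With length and GC offsets Dap3 was called higher (0.35, edgeR adjusted p = 0.0342). Msto1 (0.12), Rusc1 (0.11) and Fdps (0.19), the gene for farnesyl diphosphate synthase, also had positive log2 fold changes; with library size scaling Msto1 (-0.02) and Rusc1 (-0.04) were below 0.

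As among all tested genes, few partners and counterparts of the enzymes were called by edgeR (2.11% beside 3.76%). Over 10 lists with 95 genes of COMPASS and related complexes, other histone methyltransferases, demethylases, Polycomb proteins and readers, 1 gene fell, 1 rose and 93 did not pass (edgeR, adjusted p under 0.05; 22 at an unadjusted p under 0.05; 9 lower and 2 higher by DESeq2), with a median log2 fold change of -0.13. Over all genes, DESeq2 called 732 lower and 1102 higher of 14423. All 95 list genes were tested, with a median transcript of 4060 bases, shorter than any member. The list of 4 COMPASS core subunits, which the H3K4 enzymes need for activity, had 0 calls (edgeR, 2 at an unadjusted p under 0.05; DESeq2 called 1 as higher) and a median of 0.07. In it Dpy30 had 45.5 and 44.6 CPM in KO and 33.7, 38.1 and 31.9 CPM in control skin (0.38, SE 0.12, edgeR adjusted p = 0.103), and Rbbp5 had 19.1 and 20.2 CPM in KO and 24.6, 27.8 and 22.4 CPM in control skin (-0.35, SE 0.14, edgeR adjusted p = 0.171). Both have groups that do not overlap, with opposite signs, though with length offsets Dpy30 was at -0.08.

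Of 5 further subunits of the SET1 complexes, Bod1, a short gene related to the SET1B subunit Bod1l, rose to 141 and 155 CPM in KO, against 95, 104 and 111 CPM in control skin (log2 fold change 0.52, SE 0.12, edgeR adjusted p = 0.0416), and 4 did not pass. It was no longer called with library size scaling (0.38, edgeR adjusted p = 0.0727) or with length and GC offsets (0.21, edgeR adjusted p = 0.209). The 5 subunits and cofactors of the KMT2A and KMT2B complexes had 0 calls (edgeR, 1 at an unadjusted p under 0.05; 0 by DESeq2) and a median of -0.08, with Hcfc2 at -0.33 and the acetyltransferase gene Kat8 at 0.17. The 4 of the KMT2C and KMT2D complexes also had 0 calls (edgeR, 3 at an unadjusted p under 0.05; 0 by DESeq2) and a median of -0.33. Kdm6a, the H3K27 demethylase of these complexes, had 20.3 and 21 CPM in KO and 32.7, 31.1 and 21.4 CPM in control skin (-0.46, SE 0.18, edgeR adjusted p = 0.163), and the coactivator gene Ncoa6 was at -0.37. The 6 partners of ASH1L and SETD2 had 0 calls (edgeR, 0 at an unadjusted p under 0.05; 0 by DESeq2), among them Rbbp4 at 0.26 and Polr2a, for the large subunit of RNA polymerase II, at -0.20. With length and GC offsets Rbbp4 was called higher (0.45, SE 0.09, edgeR adjusted p = 0.027).

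Among enzymes that remove methyl groups from H3K4 and H3K36, 1 of 14 genes fell, the Y-linked H3K4 demethylase gene Kdm5d, with 7.15 and 8.29 CPM in KO and 13.9, 12.7 and 11.1 CPM in control skin (-0.71, SE 0.16, edgeR adjusted p = 0.0393). It had -0.42 with length offsets and -0.38 with length and GC offsets, where it was not called. The 10 other H3K36 and H3K4 methyltransferases (median -0.09) and the 12 methyltransferases of H3K9, H3K20, H3K27 and H3K79 (median -0.13) had 0 calls by edgeR, with 3 and 2 genes at an unadjusted p under 0.05 and 1 each called lower by DESeq2. Setd7 was at -0.44 (edgeR adjusted p = 0.057) and Nsd3, a paralogue of Nsd1, at -0.29. Dot1l, the H3K79 enzyme, was at -0.50 and Kmt5b, an H3K20 enzyme, at -0.38. Of 22 Polycomb genes 0 were called (edgeR, 3 at an unadjusted p under 0.05; DESeq2 called 2 lower), with Phc3 at -0.66 and Pcgf3 at -0.54, and of 13 reader genes 0 were called (edgeR, 3 at an unadjusted p under 0.05; DESeq2 called 2 lower), with the DNA methyltransferase gene Dnmt3a at -0.42 and Zmynd11, which reads H3K36 trimethylation, at -0.37.

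Other large chromatin proteins are the list most like the family in transcript length, with a median of 9891 bases. Of 20 such genes 2 fell, 0 rose and 18 did not pass (edgeR, 8 at an unadjusted p under 0.05; DESeq2 called 6 lower and 0 higher), with a median log2 fold change of -0.23. The edgeR calls make 10% of the list, beside 6.08% called lower among tested genes at least as long as Setd1a. The chromatin remodeller gene Chd6 fell to 18 and 17.1 CPM in KO, against 26.4, 25 and 27.5 CPM in control skin (-0.58, SE 0.12, edgeR adjusted p = 0.0341), and the ubiquitin ligase gene Huwe1 to 110 and 125 CPM in KO, against 177, 157 and 174 CPM in control skin (-0.52, SE 0.12, edgeR adjusted p = 0.0447). With length and GC offsets this list had a median of 0.01 and 0 calls (edgeR, 3 at an unadjusted p under 0.05), beside -0.13 and 1 call for the methyltransferases. Whether these lists differ was not tested.

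Hox genes and their cofactors, the classical targets of KMT2A and ASH1L, showed no common direction. Of 43 genes listed, 20 passed the filter on low counts and 0 were called (edgeR, 4 at an unadjusted p under 0.05; DESeq2 called 1 lower and 2 higher), with a median of 0.20 and 8 of 20 negative. Hoxd3 had 4.01 and 3.85 CPM in KO and 2.05, 1.67 and 2.49 CPM in control skin (log2 fold change 0.94, SE 0.24, edgeR adjusted p = 0.0569), and the cofactor gene Meis1 had 17.7 and 19.4 CPM in KO and 24.2, 28.9 and 24.6 CPM in control skin (-0.48, SE 0.14, edgeR adjusted p = 0.0757). Both had groups that do not overlap. With length and GC offsets Hoxd3 was called as higher (0.85, edgeR adjusted p = 0.0468).

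**Figure D5:**
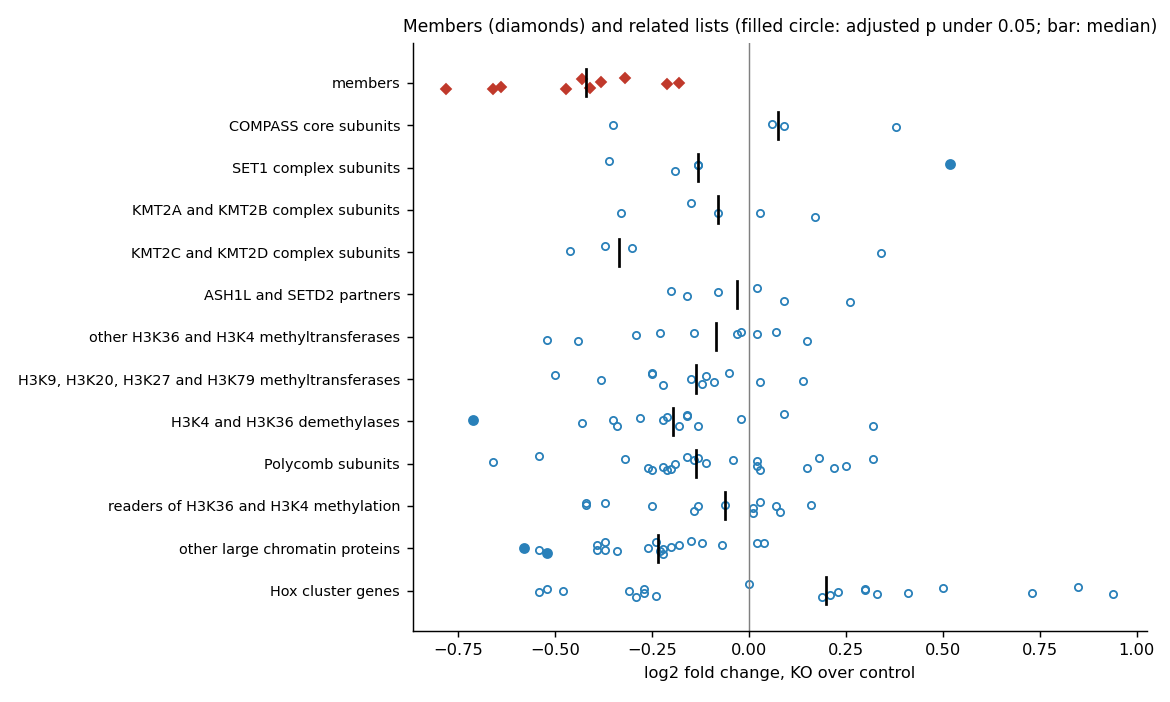
Log2 fold change of KO over control (horizontal axis) for the members (red diamonds, calls not shown) and for each tested gene of the related lists (blue circles, filled where the adjusted p was under 0.05), with the median of each row as a black bar; vertical scatter within a row has no meaning. The members' median lies at -0.42, the other large chromatin proteins' at -0.23 and the Hox list's at 0.20.

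The genes whose pattern over the 5 libraries was nearest to that of Ash1l were Mbd5, Braf, Corin, Kat6a and Tmem170b, by the root mean square difference of centred log2 CPM among 11650 annotated genes with a mean of at least 5 CPM. The differences were 0.031 for Mbd5, 0.033 for Braf, 0.039 for Corin, 0.048 for Kat6a and 0.048 for Tmem170b. Kat6a, the gene for a histone acetyltransferase, had 32.8 and 29.6 CPM in KO and 53.9, 49.4 and 45.2 CPM in control skin, and Braf, the gene for a kinase of the MAP kinase pathway, had 15.1 and 13.9 CPM in KO and 23.5, 23.8 and 19.8 CPM in control skin. In both, as in Ash1l, control replicate 3 was the lowest control. Both genes were chosen for nearness to Ash1l over these same libraries, so this likeness adds nothing further. The other members were farther off: Nsd1 (0.147) ranked 301 and Kmt2a (0.148) ranked 316, while Kmt2d (0.32) ranked 4128. With the length and GC trends removed, 1 of the 5 genes, Mbd5, was again among the nearest 5, beside Zfp607a, Tbk1, Dennd4c and Avpr1a.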

How the data were processed

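Ear skin RNA of 3 control and 2 KO libraries was sequenced, and the authors deposited a table of whole-number read counts per Entrez gene, not normalized. Per the submitters' processing notes, the tools named are FastQC, HISAT2 2.0.4 and DESeq2 1.16.1 and the build GRCm38 (mm10), with no role or order given; the deposited counts hold whole numbers only. No source used here names the counting program or says whether it used strand. Libraries were grouped by title. Symbols and positions came from RefSeq (25275 of 27179 identifiers), and transcript length and GC content from GENCODE (21572 genes, 90.5% of those tested).

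Counts were filtered with filterByExpr, scaled with TMM and tested with edgeR 4.0.16 in R 4.3.3 (robust quasi-likelihood F test, Benjamini-Hochberg over 17472 genes, threshold 0.05; 657 called). The test was checked on counts simulated with the same dispersion for every gene. It recovered 26% of 1.5-fold, 78% of 2-fold and 100% of 4-fold changes, and 10 of 156 calls were false. The simulated libraries held no trend on transcript length or GC content, so these shares need not hold for the real libraries. Per-library offsets were smooth trends of log2 CPM on length, or length and GC, fitted with mgcv 1.9.3. Alternatives were 3 other scalings, 2 other filters, robust estimation off, DESeq2 1.42.0, a replicate block, the 2 offsets and leaving out each replicate. Fold changes are KO over control on the log2 scale.

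The members, lists and alternatives were chosen with earlier results of these data known. By the rule for names, the text names the members, Cd1d1, list genes past the threshold (at most 4 a list, otherwise the 2 of smallest p), the neighbours of Ash1l and the 5 genes nearest to it in pattern. Between libraries, chi-square per degree of freedom was 20.2 to 122, so none was a duplicate.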

Additional observations from a re-analysis of the deposited data

How the results depend on the processing

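Each member had at least 1127 counts in every library, and the groups hold 2 and 3 libraries. Among the genes named in the text, none of those called (Ash1l, Kmt2a, Kmt2d, Cd1d1, Bod1, Kdm5d, Chd6, Huwe1, Braf and Kat6a) turned its direction in the alternatives run. Of those not called, Kmt2e, Setd1a, Dpy30, Kat8, Polr2a and Nsd3 changed sign with length offsets. Kmt2e, Kat8, Polr2a and Nsd3 also did with length and GC offsets, and Msto1 and Rusc1 with library size scaling. All these fits reuse the same libraries, from which Ash1l, Braf and Kat6a were chosen, so a direction kept is a description only. Of 150 fold changes of members under an alternative, 127 moved by less than the spread between replicates and 23 by more. Of 555 such values of other named genes, 441 kept their side of the threshold, 33 lost the call and 81 gained one. The main counts were 657 of all genes, 3 members, 4 genes of the partner, comparison and target lists and 18 genes near Cd1d1. The counts near Cd1d1 include Cd1d1 itself wherever it was called. Over the members the median was -0.42.

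With library size scaling, which moved the median of all genes to -0.16, these were 1242 genes (268 higher and 974 lower, against 474 and 183), 5 members, 19 list genes and a member median of -0.57. With every gene with a count, 1036 genes and 8 list genes were called. The DESeq2 test called 1834 genes, 5 members, 20 list genes and 29 near Cd1d1. Length offsets left 14 genes, 0 members, 0 list genes and 2 near Cd1d1, with a member median of -0.12. Length and GC offsets gave 1 member, 10 near Cd1d1 and a member median of -0.13. Leaving out each replicate gave 0 to 3277 genes, 0 to 6 members, 0 to 35 list genes, 0 to 45 near Cd1d1 and member medians of -0.48 to -0.41; the count of all genes was 0 without control replicate 1 (edgeR, 2253 at an unadjusted p under 0.05), 1 with KO replicate 1 left out, 128 with KO replicate 2 left out, 1334 for control replicate 2 and 3277 for control replicate 3. With the replicate number as a block, 2037 genes, 6 members, 20 list genes and 31 near Cd1d1 were called, with a member median of -0.48. The numbers were not shown to pair the libraries: same-numbered libraries deviated from their group means with correlations of 0.02 and 0.06. This fit leaves control replicate 3, which has no partner, out of the estimate of the difference. Apart from that, the cause of these shifts was not tested.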

Other observations

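Ratios of 2 members within a library, per kilobase, do not depend on the scaling between libraries. They can still carry each library's trends on length and GC content, which were not removed here. Kmt2a over Kmt2b was 0.316 and 0.228 in KO and 0.368, 0.375 and 0.289 in control skin, so the groups overlapped. Kmt2c over Kmt2d was 1.23 and 1 in KO and 0.818, 1.34 and 0.56 in control skin, where both KO values lay within the range of the controls. Setd1b over Setd1a was 0.499 and 0.456 in KO and 0.482, 0.588 and 0.611 in control skin. Ash1l over Nsd1 was 0.665 and 0.568 in KO and 0.693, 0.773 and 0.632 in control skin. Setd2 over Nsd1 was 0.885 and 0.992 in KO and 0.864, 0.957 and 0.919 in control skin. In all 5 pairs the KO and control ranges overlapped.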
